A study of Mus musculus with 6 samples.

Results

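Axons are taken down by a programme of their own when they are injured, starved of trophic factor or pruned in development. The 9 genes described here encode core parts of that programme: Sarm1, Nmnat2, Map3k12, Map3k13, Tnfrsf21, Bax, Apaf1, Casp9 and Casp6. They were chosen by gene symbol, with no measured value in the rule, from a table of 16613 genes, and all 9 were present in it and passed the filter on low counts that left 15043 genes for testing. The tissue was dorsal root ganglion, which houses the somata of sensory neurons beside glia, vessels and immune cells. The knockout group was Kif2a fl/fl; Avil cre, that is, both Kif2a alleles floxed plus a Cre under control of Avil, a gene of sensory neurons. The control group was Kif2a fl/fl without the Cre. Both groups were 6 months old, and each had 3 libraries of poly(A) RNA. The labels do not say whether libraries came from separate animals, so p-values measure the spread between these libraries, which may be partly technical. Only the knockout carried Cre, so loss of Kif2a and presence of Cre cannot be told apart.

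Background on the pathway is as follows. NMNAT2 is a short-lived enzyme, carried down the axon, that makes NAD. SARM1 destroys NAD once NMNAT2 is lost, and the axon then fragments. DLK (Map3k12) and LZK (Map3k13) are related kinases that signal axonal damage or trophic factor loss to JNK kinases and the transcription factor Jun. DR6 (Tnfrsf21) is a death receptor linked to axon pruning. BAX permeabilises mitochondria, APAF1 then assembles the complex that activates caspase-9, and caspase-6 is an effector caspase found to act in degenerating sensory axons. Kif2a itself encodes a microtubule-depolymerising kinesin that, in mice, has been linked to pruning of sensory axons.

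The DLK and LZK cascade ends on Jun and Atf3, whose proteins bind the letters TGACGTCA (CRE) or TGANTCA (AP-1), and Atf3 had the largest difference among the pathway genes that passed the filter on low counts. The members' promoters were therefore searched for these letters and for the TGACG core of the CRE, on both strands, from 250 bases before to 50 after each start in RefSeq (GRCm38.p6). TGACGTCA contains the TGACG core. Promoters were found for 9 of 9 members, 10 promoters in all since Map3k12 has a pair. TGACGTCA and TGANTCA were in 0 of the 9, and the TGACG core was in 3 of 9. Among all 32851 promoters, 1.79% held TGACGTCA, 7.81% held TGANTCA and 20.8% held TGACG. These shares are per promoter, whereas the counts for members are per gene, with a pair of promoters searched for Map3k12. The promoters with the core are shown because they include the opposed pair Sarm1 and Nmnat2. Each is 5′ to 3′ on the gene's strand, and capitals mark TGACG or its reverse complement.
Sarm1, minus strand, chr11:78497705-78498004: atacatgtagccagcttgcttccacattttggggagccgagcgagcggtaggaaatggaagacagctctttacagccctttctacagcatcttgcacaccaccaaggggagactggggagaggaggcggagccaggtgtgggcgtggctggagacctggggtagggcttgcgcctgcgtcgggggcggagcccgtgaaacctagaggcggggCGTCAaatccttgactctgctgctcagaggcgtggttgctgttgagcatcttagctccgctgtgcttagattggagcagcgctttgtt
Nmnat2, plus strand, chr1:152954851-152955150: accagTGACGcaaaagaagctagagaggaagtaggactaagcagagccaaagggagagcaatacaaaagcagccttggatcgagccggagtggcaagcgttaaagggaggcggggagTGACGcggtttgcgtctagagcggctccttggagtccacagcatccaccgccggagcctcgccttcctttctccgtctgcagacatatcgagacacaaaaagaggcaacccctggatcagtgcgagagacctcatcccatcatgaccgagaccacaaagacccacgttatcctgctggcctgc
Map3k12, minus strand, chr15:102510651-102510950: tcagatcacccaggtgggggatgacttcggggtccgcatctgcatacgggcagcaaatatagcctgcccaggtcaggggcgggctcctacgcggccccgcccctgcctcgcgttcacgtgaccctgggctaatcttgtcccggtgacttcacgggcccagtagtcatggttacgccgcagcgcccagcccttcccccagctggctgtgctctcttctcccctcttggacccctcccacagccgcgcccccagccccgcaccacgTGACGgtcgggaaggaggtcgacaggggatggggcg
Sarm1 held 1 match and Nmnat2 held 2. Map3k12 held 1 in the promoter shown and 0 in its other promoter (chr15:102516955-102517254). The Map3k12 promoter shown lies inside the annotated gene. So does the only Map3k13 promoter searched (chr16:21891719-21892018), which held 0 matches. A match describes these letters only and is not evidence of binding.

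Library totals ran from 16090726 to 19221415 counts, and a gene with 3 counts is at 0.156 to 0.186 CPM, the unit that divides counts by library size. Values below are CPM after TMM scaling, the trimmed-mean method of edgeR. The floxed gene Kif2a was at 90.6, 85.7 and 88.5 CPM in knockout replicates 1 to 3, against 105.6, 93.9 and 92.7 CPM in control replicates 1 to 3, a log2 difference of -0.14 (SE 0.10). The edgeR adjusted p was 0.957. All knockout libraries were below all control libraries for Kif2a. With the shared library number as a model term, its log2 difference was -0.14 (SE 0.07) and the edgeR adjusted p was 0.284. Avil, whose regulatory sequence drives the Cre, was at 439 to 518 CPM in knockout libraries and 1003 to 1095 CPM in control libraries, and it fell by 1.16 (SE 0.07, edgeR adjusted p = 2.39e-05) once the shared library number was a model term (a block). Without the block the log2 difference was -1.16 (SE 0.12) and the adjusted p was 0.084, so the call was lost. Whole-gene counts do not isolate the floxed part, nor neurons from other cells. All 7 sensory neuron markers checked, among them Prph and Uchl1, were present in every library. Avil is itself one of them, and the other 6 summed to 6644, 5510 and 6684 CPM in knockout replicates 1 to 3, against 6212, 5378 and 5954 CPM in control replicates 1 to 3, so the groups overlapped in this sum. Within it, Snap25 did not overlap, at 1919 to 2061 CPM in knockout and 1538 to 1781 CPM in control libraries. Its edgeR adjusted p was 0.910 without the block and 0.0559 with it. The log2 difference was -0.05 for both Prph and Pou4f1, and from 0.01 to 0.12 for Isl1, Uchl1 and Rbfox3. Control replicate 2 stood apart in 4 skeletal muscle markers, which summed to 889 CPM there, to 4.62 to 48.0 CPM in the knockout libraries and to 3.90 and 19.9 CPM in the other two control libraries. In whole ganglia, fewer cells of a type and less RNA per cell cannot be told apart.

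None of the 9 genes passed an adjusted p of 0.05 in the edgeR quasi-likelihood fit with group as its only term (0 of 9, against 0% of all 15043 tested genes). None passed with the replicate number as a block either (0 of 9, against 3.60% of tested genes). The replicate block takes the shared library number as a term, and its standard errors were smaller for each of the 9 genes. Without adjustment, 0 of 9 had p under 0.05 in the fit without a block, where 5.48% of tested genes did. With the block, 3 of 9 did, where 19.1% of tested genes did. In the fit without a block the median log2 fold change of the 9 genes was 0.0022, beside 0.011 over all tested genes, and the members ran from -0.20 to 0.27. The groups overlapped for each of the 9 genes, whereas they did not overlap for 11.1% of tested genes. The authors' deposited table gives the 9 genes false discovery rates between 0.880 (Casp6) and 0.9997 (Sarm1).

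**Figure D1:**
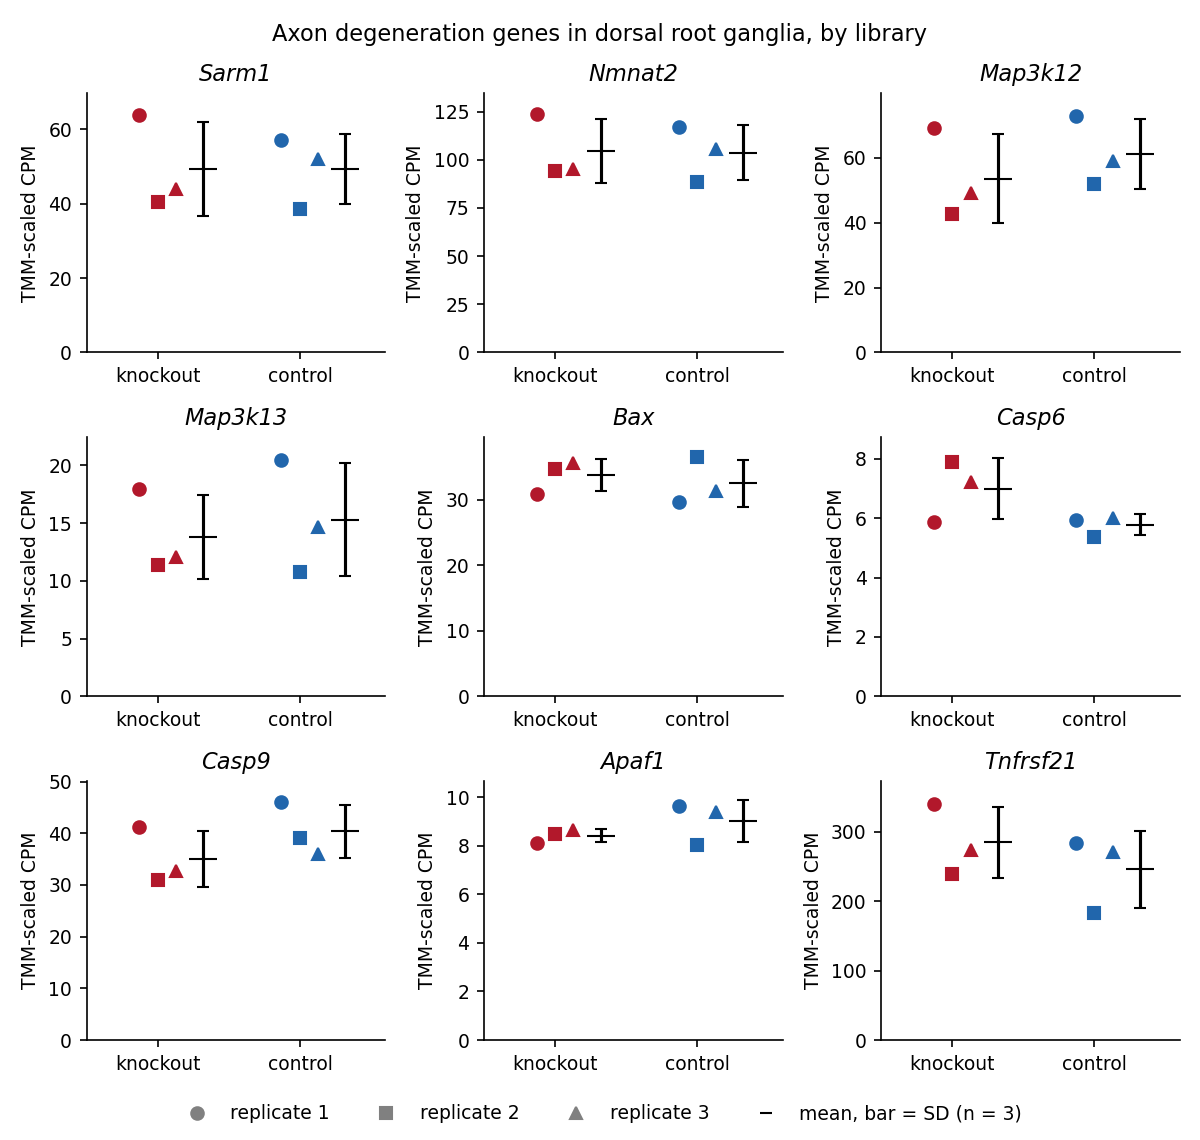
TMM-scaled CPM of each of the 9 genes in every library, with knockout libraries in red and control libraries in blue, marker shapes for replicates 1 to 3, and the mean with SD beside them (n = 3 each). The groups overlap in every panel, and circles (replicate 1) are at the top of both groups for 6 of the 9 genes.

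The opposed NAD enzymes had almost the same mean in both groups. Sarm1, the NAD hydrolase that executes axon fragmentation, is on the minus strand of chromosome 11, from 78472330 to 78497754 (GRCm38), and its exons overlap no other annotated gene. It was at 63.7, 40.3 and 44.0 CPM in knockout replicates 1 to 3, against 57.1, 38.7 and 52.1 CPM in control replicates 1 to 3. The highest library of the 6 was a knockout one and the lowest a control one, with the rest interleaved. Its log2 fold change was 0.0022 (SE 0.21, edgeR adjusted p = 0.999). The mean in knockout libraries was 100.1% of that in control libraries. With the replicate block the value was -0.0067 (SE 0.09), with a 95% interval of -0.20 to 0.19, which in linear terms is 87.1% to 113.7% of control.

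Nmnat2, the axonal NAD synthase, lies on chromosome 1 from 152954993 to 153119261 on the plus strand. It was at 123.8, 94.3 and 95.4 CPM in knockout replicates 1 to 3, against 117.1, 88.5 and 105.7 CPM in control replicates 1 to 3. Replicate 1 was the highest in both groups, and the groups overlapped throughout. The log2 fold change was 0.011 (SE 0.15, adjusted p = 0.997), and 0.0088 (SE 0.07) with the block, where the 95% interval corresponded to 90.3% to 112.1% of control. The ratio of Nmnat2 to Sarm1 within a library does not depend on library scaling. On the log2 scale it was 0.96, 1.22 and 1.12 in knockout libraries, and 1.03, 1.19 and 1.02 in control libraries. The group means were 1.10 ± 0.13 in knockout and 1.08 ± 0.10 in control (SD, n = 3 each), a difference of 0.017 that is smaller than either SD.

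The kinases at the head of the JNK arm had lower means in the knockout but did not pass. Map3k12, the DLK gene (chromosome 15, 102497646 to 102517064, minus strand), was at 69.1, 42.6 and 49.1 CPM in knockout replicates 1 to 3, against 72.9, 51.8 and 59.0 CPM in control replicates 1 to 3. The knockout library was the lower one in 3 of 3 same-numbered pairs, with log2 differences of -0.08, -0.28 and -0.26 in pairs 1 to 3, yet the groups overlapped. Its log2 fold change was -0.19 (SE 0.20, adjusted p = 0.981) without the block. With the block it was -0.21 (SE 0.07), with an unadjusted p of 0.0171 and an adjusted p of 0.156. Without the block it ran from -0.42 with knockout replicate 1 left out to -0.052 with knockout replicate 2 left out. Its exons share 1573 bases with Pcbp2 and 159 with Gm10337 on the other strand, and no source used here states whether counting used strand, so reads there cannot be assigned.

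Map3k13, the LZK gene, on chromosome 16 from 21794346 to 21933439 on the plus strand, was at 18.0, 11.4 and 12.0 CPM in knockout replicates 1 to 3, against 20.4, 10.8 and 14.7 CPM in control replicates 1 to 3. Pair 2 ran the other way from pairs 1 and 3, and the spread within each group was larger than the gap between the means. The log2 fold change was -0.15 (SE 0.26, adjusted p = 0.984), and the wide 95% interval, -0.75 to 0.46, was the widest of the 9. Without control replicate 1 the value was 0.10, the other sign. Its exons share 227 bases with 1300002E11Rik on its own strand and 54 with 2610020F03Rik on the other strand. The log2 ratio of Map3k13 to Map3k12 averaged -1.95 ± 0.06 in knockout and -2.03 ± 0.21 in control libraries (SD, n = 3 each), and the groups overlapped.

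Tnfrsf21, the death receptor gene DR6, had the highest counts of the 9. It lies on chromosome 17 from 43016555 to 43089189 on the plus strand. It was at 340.5, 239.7 and 273.4 CPM in knockout replicates 1 to 3, against 284.2, 182.5 and 270.7 CPM in control replicates 1 to 3. The knockout library was the higher one in 3 of 3 pairs, although pair 3 differed by 0.014 on the log2 scale, against 0.26 and 0.39 in pairs 1 and 2. The log2 fold change was 0.21 (SE 0.20, adjusted p = 0.980), and 0.22 (SE 0.08, unadjusted p = 0.0158, adjusted p = 0.149) with the block. Without the block the value was 0.045 with control replicate 2 left out and 0.059 with knockout replicate 1 left out. With any other library left out it lay between 0.24 and 0.32. Control replicate 2 is the library with the muscle markers, and their part in this value was not tested. With pair 3 left out of the blocked fit, Tnfrsf21 passed (0.33, SE 0.06, adjusted p = 0.00707), whereas with pair 1 or pair 2 left out it did not (adjusted p = 0.516 and 0.479).

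The mitochondrial and caspase arm was mixed. Bax, the pore-forming Bcl-2 family member (chromosome 7, 45461697 to 45466898, minus strand), was at 30.9, 34.6 and 35.6 CPM in knockout replicates 1 to 3, against 29.6, 36.5 and 31.3 CPM in control replicates 1 to 3. The highest and the lowest of the 6 were both control libraries. Its log2 fold change was 0.053 (SE 0.12, adjusted p = 0.985), and its blocked 95% interval corresponded to 91.5% to 118.1% of control. It shares 192 exonic bases with Gm45808 on the same strand. The log2 ratio of Bax to Bcl2l1, whose protein restrains BAX, averaged -1.16 ± 0.25 in knockout and -1.08 ± 0.21 in control libraries (SD, n = 3 each). That gap was smaller than either SD.

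Apaf1, the scaffold of the caspase-9 activating complex (chromosome 10, 90989311 to 91082770, minus strand), was at 8.10, 8.48 and 8.64 CPM in knockout replicates 1 to 3, against 9.63, 8.03 and 9.37 CPM in control replicates 1 to 3. All knockout values lay between the lowest and the highest control value. Its log2 fold change was -0.10 (SE 0.14, adjusted p = 0.981), from 140 to 153 counts in knockout and 136 to 172 counts in control libraries. Omitting control replicate 2 gave -0.17 and omitting control replicate 1 gave -0.063, the extremes over the 6 libraries.

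Casp9, the initiator caspase gene, on chromosome 4 from 141793612 to 141815976 on the plus strand, was at 41.3, 31.0 and 32.8 CPM in knockout replicates 1 to 3, against 46.0, 39.1 and 36.0 CPM in control replicates 1 to 3. It was lower in knockout in 3 of 3 pairs, by log2 differences of -0.16, -0.33 and -0.13, with knockout replicate 1 above control replicates 2 and 3. The log2 fold change was -0.20 (SE 0.15, adjusted p = 0.957), and -0.21 (SE 0.08, unadjusted p = 0.0240, adjusted p = 0.183) with the block. Without the block it was -0.34 with knockout replicate 1 left out, -0.12 with knockout replicate 2 left out and -0.11 with control replicate 1 left out. The log2 ratio of Casp9 to Xiap, an inhibitor of caspases, averaged -1.59 ± 0.30 in knockout and -1.32 ± 0.12 in control libraries (SD, n = 3 each), with overlap. Casp9 shares 94 exonic bases with Ctrc and with Cela2a on the other strand.

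Casp6, the effector caspase gene, on chromosome 3 from 129901425 to 129914103 on the plus strand, had the smallest p of the 9 in the fit without a block. It was at 5.88, 7.89 and 7.22 CPM in knockout replicates 1 to 3, against 5.94, 5.37 and 6.02 CPM in control replicates 1 to 3. Knockout replicates 2 and 3 were above every control library, and knockout replicate 1 was inside the control range. The log2 fold change was 0.27 (SE 0.17, unadjusted p = 0.153, adjusted p = 0.952), and the same 0.27 (SE 0.17) with the block, with a 95% interval of -0.10 to 0.63. Without the block it ran from 0.18 with knockout replicate 2 left out to 0.38 with knockout replicate 1 left out. In the blocked fit, omitting pair 2 gave 0.13 and omitting pair 1 gave 0.40. The counts behind it were 111 to 135 in knockout and 91 to 108 in control libraries. By root mean square difference of centred log2 CPM over the 6 libraries, the genes nearest to Casp6 in pattern among 14270 with a mean of at least 1 CPM were Vim (0.040), Gpm6b (0.042) and Epyc (0.051). They are the closest of many genes over few libraries, and no background distance was computed. Their nearness therefore does not show that they vary together with Casp6.

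**Figure D2:**
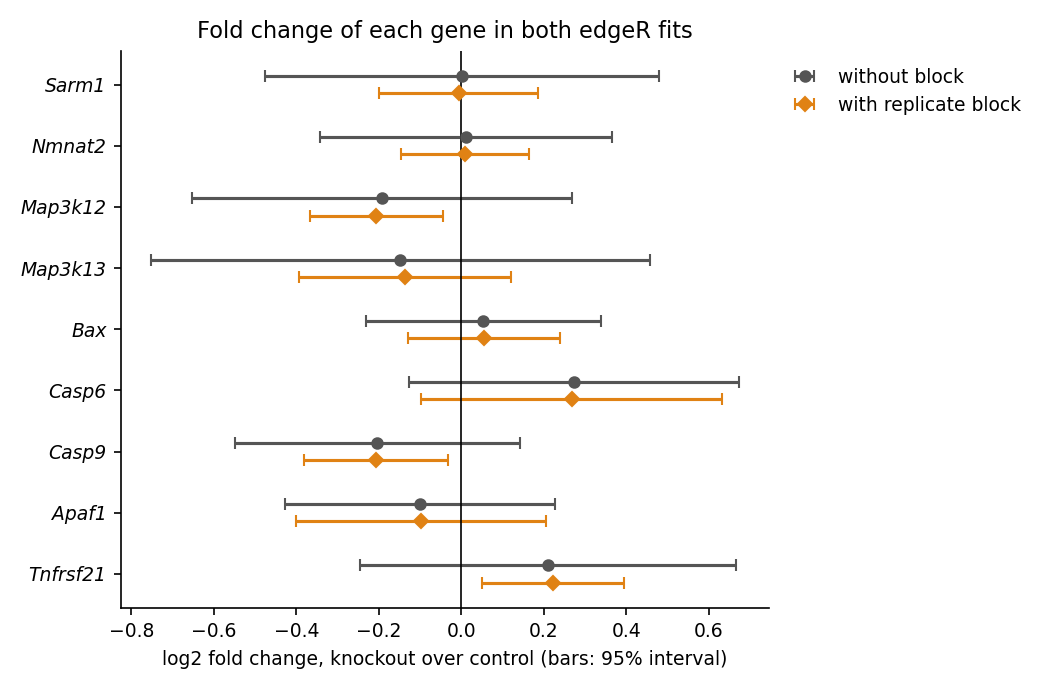
Log2 fold change of each gene, knockout over control, with its 95% interval in the edgeR fit without a block (grey circles) and with the replicate block (orange diamonds). All grey intervals include 0, and the orange intervals of Map3k12, Casp9 and Tnfrsf21 do not, at unadjusted p of 0.0171, 0.0240 and 0.0158.

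The sign was the same in 3 of 3 pairs for 3 of the 9 genes, beside 42.0% of tested genes. These 3 were Map3k12 and Casp9 (lower) and Tnfrsf21 (higher). For Sarm1, Nmnat2, Map3k12, Map3k13, Casp9 and Tnfrsf21, 6 of the 9, replicate 1 was the highest library in both groups, beside 27.9% of tested genes. Bax, Casp6 and Apaf1 did not follow that pattern, and within the knockout group all of them were lowest in replicate 1. Within the control group Bax was lowest in replicate 1 (29.6 CPM), but Casp6 and Apaf1 were lowest in replicate 2 (5.37 and 8.03 CPM). Apaf1 was highest in control replicate 1 (9.63 CPM). The macrophage markers Cd68, Csf1r, C1qa, C1qb and Aif1 summed to 59.0 CPM in knockout replicate 1 against 105.0 and 118.4 CPM in knockout replicates 2 and 3, and to 45.6 CPM in control replicate 1 against 88.6 and 92.0 CPM in control replicates 2 and 3. The fibroblast markers Col1a1, Dcn and Lum were also lowest in replicate 1, at 738 CPM in the knockout and 513 CPM in the control. Replicate 1 was the lowest library of both groups for the satellite glia sum too, at 4778 CPM in the knockout and 4410 CPM in the control, and for the neutrophil sum, at 89.6 CPM in the knockout and 44.7 CPM in the control. Most of the satellite glia sum was Apoe, at 3833 CPM in knockout replicate 1 and 3476 CPM in control replicate 1. Apoe and Fabp7 were lowest in replicate 1 of both groups. In the control group, however, Kcnj10 was highest in replicate 1 (118.3 CPM) and Glul was lowest in replicate 2 (361.7 CPM). The adipocyte sum (3.65 CPM in the knockout, 2.63 CPM in the control) and Alas2, the 1 erythroid marker of 4 in the table (11.2 CPM in the knockout, 9.07 CPM in the control), were lowest in replicate 1 as well. Other lists did not follow. The endothelium and skeletal muscle sums were highest in replicate 1 of the knockout group (54.7 and 48.0 CPM) and not lowest there in the control group. The Schwann cell sum (4991 CPM in the knockout, 5266 CPM in the control) and the sensory neuron sum without Avil were lowest in replicate 1 of neither group. The part of these lists in the levels of the 6 genes was not tested.

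**Figure D3:**
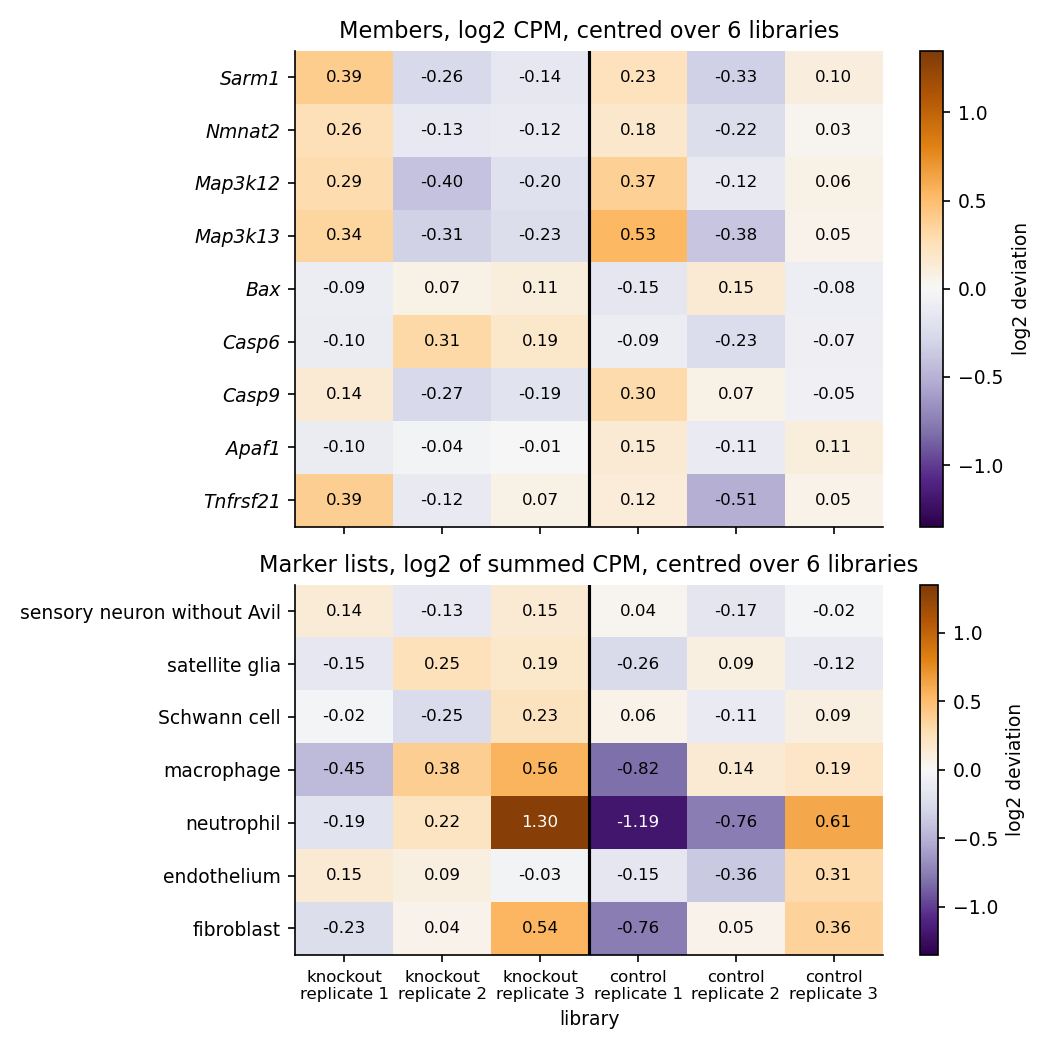
Deviation of each library from the mean over 6 libraries, on the log2 scale, for the 9 genes (top) and for summed marker lists (bottom), with knockout libraries left of the black line and control libraries right of it. Replicate 1 is above average for 6 of the genes in both groups, while the macrophage, fibroblast, neutrophil and satellite glia sums are lowest there within each group. The endothelium, Schwann cell and sensory neuron sums are lowest there in neither group. The sensory neuron sum leaves out Avil.

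Levels can be compared between genes only per length. Per kilobase of merged exons in GENCODE M21, Tnfrsf21 was the most abundant at 69.2 ± 12.5 CPM per kb in knockout and 59.8 ± 13.4 in control libraries (SD, n = 3 each). Bax followed at 21.4 ± 1.56 and Nmnat2 at 18.1 ± 2.89 CPM per kb in knockout, against 20.6 ± 2.29 and 17.9 ± 2.49 in control. Sarm1 was at 8.76 ± 2.23, Casp9 at 6.74 ± 1.05 and Map3k12 at 5.96 ± 1.53 CPM per kb in knockout, against 8.75 ± 1.69, 7.76 ± 0.99 and 6.81 ± 1.19 in control. Map3k13 (1.58 ± 0.42), Casp6 (1.25 ± 0.18) and Apaf1 (0.931 ± 0.030) had the lowest levels in knockout, against 1.76 ± 0.56, 1.03 ± 0.06 and 0.998 ± 0.095 in control. The order was the same in both groups. Means of the neighbours Bax and Nmnat2, of Sarm1, Casp9 and Map3k12, and of Map3k13 and Casp6 differed by less than the sum of their SDs in knockout, so their order is not settled, and the same holds for Casp6 and Apaf1 in control. The merged exon length counts all annotated isoforms, and understates genes that use short ones.

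Of 61 further genes of the pathway, listed by role, 60 were tested and Nmrk2 did not pass the filter on low counts. In the fit without a block 0 of 60 passed. With the replicate block 2 of 60 rose, beside 1.24% of tested genes, and 0 of 60 fell, beside 355 of all 15043 tested genes. The median of the 60 log2 fold changes was 0.029 in that fit, against 0.011 over all tested genes. Both genes that rose are named here with every library. Atf3, a stress-induced transcription factor downstream of JNK, was at 28.3, 22.6 and 28.2 CPM in knockout replicates 1 to 3, against 10.9, 8.56 and 9.09 CPM in control replicates 1 to 3. All knockout libraries were above all control libraries. It rose by 1.47 on the log2 scale (SE 0.11, edgeR adjusted p = 7.62e-05) with the block, had an adjusted p of 0.084 without it, and kept passing with each pair left out. Tnfrsf1a, a tumour necrosis factor receptor gene, was at 31.7, 22.3 and 29.9 CPM in knockout replicates 1 to 3, against 24.4, 14.9 and 24.6 CPM in control replicates 1 to 3. It rose by 0.41 (SE 0.10, adjusted p = 0.0427) with the block, but the groups overlapped, the adjusted p without the block was 0.933, and it did not pass with pair 1 (0.215) or pair 2 (0.0669) left out. The neutrophil markers S100a8, S100a9, Ltf and Ngp, 4 of 4 of which rose with the block, summed to 89.6 to 251.4 CPM in knockout and 44.7 to 156.1 CPM in control libraries. The macrophage markers C1qa (0.41, adjusted p = 0.0339) and C1qb (0.50, adjusted p = 0.0231), 2 of 5, and the fibroblast marker Lum (0.39, adjusted p = 0.00997), 1 of 3, rose with the block too, and their log2 fold changes are given here from the fit without it. The macrophage list summed to 59.0 to 118.4 CPM in knockout and 45.6 to 92.0 CPM in control libraries. The part of these markers in the level of Tnfrsf1a was not tested.

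**Figure D4:**
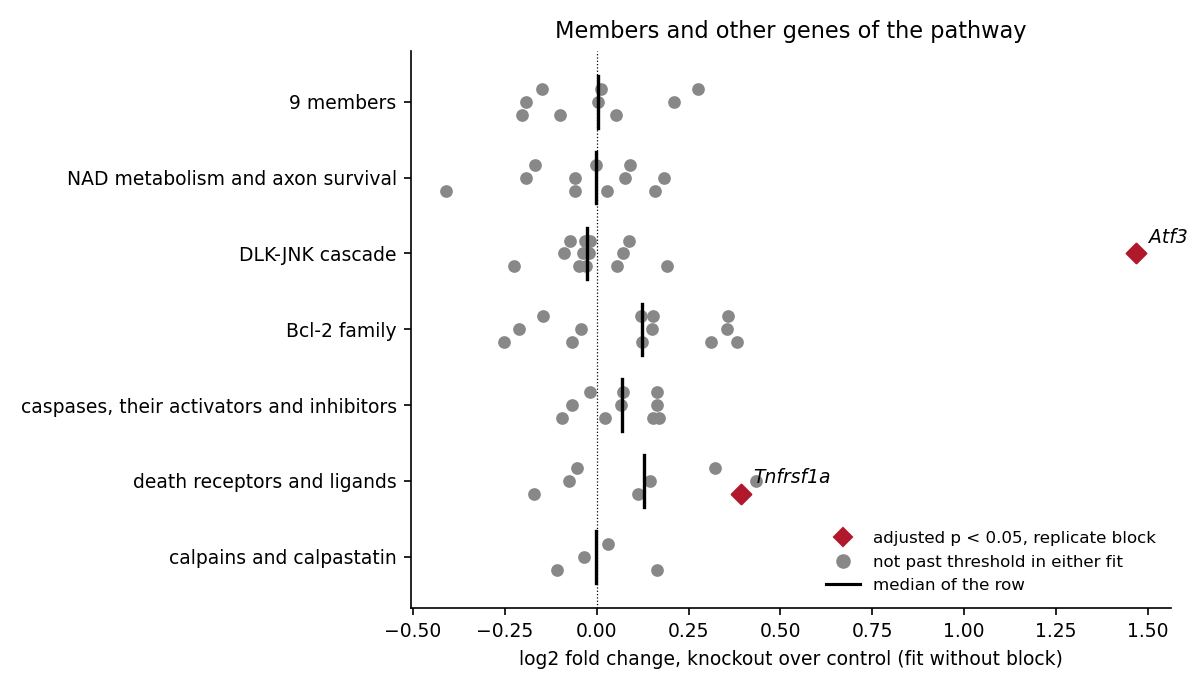
Log2 fold change, knockout over control, of the 9 members (top row) and of 60 other pathway genes by role, in the fit without a block, with the median of each row as a black bar. Atf3 (1.47) lies apart, and it and Tnfrsf1a (0.39) are the red diamonds that passed with the replicate block.

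The NAD genes other than the members had a median log2 fold change of -0.0013 over 11 genes, and 0 passed in either fit. Parp1, which consumes NAD in DNA repair, was at -0.17 (SE 0.15) and Nmrk1, a nicotinamide riboside kinase gene, at 0.16 (SE 0.16). In the cascade from DLK to JNK the median was -0.026 over 14 genes, and besides Atf3 none passed. Jun, the transcription factor that JNK phosphorylates, averaged 78.9 ± 15.8 CPM in knockout and 69.1 ± 12.6 CPM in control libraries (SD, n = 3 each). The log2 fold change was 0.19 (SE 0.18), with an adjusted p of 0.981 without the block and 0.151 with it.

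Bcl-2 family genes had a median of 0.12 over 13, and 0 passed. Bcl2, which protects cells from BAX, averaged 54.3 ± 5.41 CPM in knockout and 43.8 ± 8.95 CPM in control libraries (SD, n = 3 each). It missed the threshold with the block (0.32, SE 0.09, edgeR adjusted p = 0.0630) and without it (0.31, SE 0.17, adjusted p = 0.930). Bid, an activator of BAX, averaged 35.5 ± 0.43 CPM in knockout and 41.2 ± 4.40 CPM in control libraries, without overlap. Bid was at -0.21 in both fits (SE 0.11 and adjusted p = 0.930 without the block, SE 0.08 and adjusted p = 0.207 with it). The 10 other caspase genes and regulators had a median of 0.069, and 0 passed. Among them Diablo, which relieves caspase inhibition, was at 0.16 (SE 0.11). Death receptor and ligand genes had a median of 0.13 over 8, where Tnfrsf1a rose with the block and Aplp2, an App relative, was at -0.17 in both fits (SE 0.11 and adjusted p = 0.952 without the block, SE 0.064 and adjusted p = 0.169 with it). Calpain genes had a median of -0.0017 over 4, with Capn2 at 0.16 (SE 0.15) and Capn1 at -0.11 (SE 0.20), and 0 passed.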

How the data were processed

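RNA from dorsal root ganglia was sequenced in 3 knockout and 3 control libraries. The tools named in the submitters' processing notes are cutadapt, STAR and DESeq2, with build mm10; no source used here names the counting tool or the annotation. The authors deposited 1 table of 16613 genes, of which the raw counts per library were used (smallest row total 6). Its log2 fold changes, p-values and false discovery rates are the authors' own, per the file headers. A further 12 per-library columns were not used.

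The counts were fitted with edgeR 4.0.16 (R 4.3.3): filterByExpr (15043 genes), TMM scaling, a robust quasi-likelihood fit with group as the only term, and Benjamini-Hochberg adjustment over all tested genes at 0.05. Log2 fold changes are knockout over control. Intervals are 95% and are not adjusted. Log2 CPM used a prior count of 2. The code was tested on simulated data in which same-numbered libraries shared an effect. That test cannot show whether the libraries here are paired. Alternatives were the replicate block, DESeq2 1.42.0, limma-voom (limma 3.58.1), other scaling, no filter, and libraries or pairs left out. Replicates of each group differed beyond sampling noise (chi-square per degree of freedom 10.7 to 48.7), so none was merged. Deviations from the group means correlated at 0.53, 0.30 and 0.17 for same-numbered libraries 1 to 3 (Pearson, across genes), above the level of 0.1 at which numbers were taken to pair libraries; knockout replicate 3 and control replicate 2 also exceeded it (0.14). The labels do not state what the numbers share. Coordinates and exon lengths are from GENCODE M21 (GRCm38, the build called mm10). All 9 members are named, with other pathway genes that passed in either edgeR fit or had one of the lowest 2 p-values of their role, plus the 3 genes nearest in pattern to the member of smallest p; 1 gene that this rule names is not reported here. "Rose" and "fell" are used of genes past the adjusted threshold in the blocked fit. The members and lists were chosen with earlier results of these data known.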

Additional observations from a re-analysis of the deposited data

How the results depend on the processing

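Of all tested genes, edgeR called 0 without a block (825 at an unadjusted p under 0.05), 542 with the replicate block, and 208, 819 and 897 with the block and pair 1, 2 or 3 left out. DESeq2 called 63, and limma-voom, the other scaling, no filter and each library left out called 0. The members called were 0 under each of these settings except the block without pair 3, which called 1, Tnfrsf21. Of the other pathway genes, the block called 2, DESeq2 called 1 (Atf3), and the block without pair 1, 2 or 3 called 1, 1 and 2. The sign of the log2 fold change held under all 14 alternatives for Map3k12, Casp6, Casp9, Apaf1 and Tnfrsf21. It turned for the other 4. Sarm1 was at -0.0067 with the block, -0.0071 in limma-voom, -0.10 and -0.032 in the block without pair 1 or 2, and between -0.23 and 0.13 with 1 library left out. Nmnat2 was at -0.039 and -0.027 in the block without pair 1 or 2, and between -0.13 and 0.093 with 1 library left out. Bax was at -0.0088 in the block without pair 3, and between -0.022 and 0.15 with 1 library left out. Map3k13 ran from -0.39 to 0.10 with 1 library left out. The causes were not tested. The 4 within-library ratios were tried only with 1 library left out or with a lower prior count. Leaving out 1 of 3 libraries always shifts a group mean by less than that group's SD, so comparison with the SD cannot show stability. With 1 library left out, knockout minus control ran from -0.046 to 0.087 for Nmnat2 to Sarm1. It ran from -0.035 to 0.18 for Map3k13 to Map3k12 and from -0.21 to 0.033 for Bax to Bcl2l1. For Casp9 to Xiap it ran from -0.43 to -0.13, and only there did the sign hold. Casp6 and Apaf1 rest on 91 to 172 counts per library.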
